A study of Caenorhabditis elegans with 2 samples.

Results

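EGL-30 is the Gq alpha subunit of Caenorhabditis elegans, and 7 genes of its pathway were followed through the binding sites of the zinc finger protein ZFP-2. The 7 are egl-30, the other G alpha genes goa-1, gsa-1 and gpa-12, the effector egl-8, and the antagonists dgk-1 and eat-16, out of 19973 nuclear protein-coding genes. They were chosen by their place in the pathway around egl-30 and with earlier results of these data known. The gene egl-30 itself was selected on its signal in the pooled and thresholded peak lists. The strength of binding at egl-30, its rank and its lead over the other members are therefore descriptions, and nothing is supported with them.

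Chromatin immunoprecipitation with sequencing had been run on whole hermaphrodites of strain OP534, unc-119(tm4063) III with the transgene wgIs534, which carries ZFP-2 with GFP and FLAG at its C terminus. Animals were L4 larvae taken 52 hours after release from starvation-induced L1 arrest, and the precipitation used an antibody against GFP. There was 1 group of 2 biological replicates and no second condition, so no difference between conditions can be tested, and peaks from whole animals do not show in which cells a site was occupied. The tagged protein comes from an added transgene, and peak lists hold no expression values against which its tissue could be checked.

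In the textbook account, a receptor loads the G alpha subunit with GTP, and GTP-bound EGL-30 activates the phospholipase C beta EGL-8. EGL-8 cleaves a membrane lipid into inositol trisphosphate and diacylglycerol, and diacylglycerol promotes transmitter release at neuromuscular synapses. GOA-1, the Go alpha subunit, opposes this output, DGK-1 removes diacylglycerol by phosphorylating it, and EAT-16, a regulator of G protein signalling (RGS), speeds GTP hydrolysis on EGL-30. GSA-1, the Gs alpha subunit, drives a parallel branch through adenylyl cyclase and cyclic AMP, and GPA-12 is a G alpha subunit of a further class.

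The lists are on the ce11 build, whose sequence is that of WBcel235. The thresholded list held 660 peaks (642 nuclear) with signals from 83.8 to 8713 and a median of 117, and these were the strongest of the 14658 peaks of the pooled replicates. The pooled list and the lists of replicate 1 (18200 peaks) and replicate 2 (17770 peaks) include background calls. Signal is the authors' value for each peak, and it was compared within a list only. Read depth is unknown. A gene's span ran from 1000 bp upstream of its most upstream 5′ end to its other end, and a promoter window from 1000 bp upstream to 200 bp downstream of any of its 5′ ends.

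Of the 7 members, 3 had a thresholded summit in their span, namely egl-30, gsa-1 and eat-16, and all 3 had it in a promoter window. Across all protein-coding genes the span held a thresholded summit in 3.29% and the promoter window in 2.79%. As the members were chosen with these values known, no excess is read from the count. In the pooled list 6 members had a summit, against 40.5% of all genes. The corresponding counts were 5 in replicate 1, where 46.3% of all genes had one, and 6 in replicate 2, where 46.4% did. The member spans had a median of 6860 bp against 3027 bp for all genes, and they held 0.347 pooled summits per kb against 0.164.

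The strongest site lay at the start of egl-30 (WBGene00001196, chromosome I, 1835661 to 1841965, plus strand). Its peak ran from 1835378 to 1835893, and the summit at 1835611 stood 50 bp upstream of the first annotated 5′ end, that of transcript a. The pooled signal was 2112, rank 19 of 14658 and rank 12 among nuclear peaks. Replicate 1 gave 1017 at rank 21 and replicate 2 gave 1110 at rank 17, and the nuclear rank was 12 in both. Both replicates placed this site near the top of their own lists. As the pooled list was made from both replicates and egl-30 was selected on its pooled signal, these high ranks are partly built in.

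The position was also closely repeated, with the summits of the 2 replicates 5 bp apart. The replicate 1 summit fell on the same base as the pooled summit, and the replicate 2 summit lay 5 bp further downstream. Of 607 nuclear thresholded summits with a partner within 100 bp in both replicate lists, 90 (14.8%) were within 5 bp in both, and the median offset was 10 bp in each replicate. The pooled list was made from both replicates, so offsets from its summits are partly built in. These summits were not matched to egl-30 by signal. The median signal of the thresholded list was 117, against 2112 for this site.

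A pair of weaker thresholded peaks followed inside the gene. The first ran from 1836803 to 1837018 with its summit at 1836875, in intron 1 of transcript a and in the untranslated first exon of transcript b, 224 bp past the 5′ end of b at 1836651. Its pooled signal was 229 (rank 113), with 115 in replicate 1 (rank 103) and 137 in replicate 2 (rank 97). The second ran from 1836861 to 1837296, with its summit at 1837079 and 428 bp past the same 5′ end. It had a signal of 123 (rank 293), with 43.4 in replicate 1 (rank 502) and 57.5 in replicate 2 (rank 472). These 2 peaks overlap, so they are neighbouring calls and not separate observations.

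At both intragenic summits the replicates differed more in position than at the first site. Replicate 1 fell within 1 bp of each pooled summit, whereas replicate 2 lay 74 bp and 71 bp downstream of them. Beyond the thresholded list, a pooled summit at 1839569 had a signal of 34.7, rank 5807. That is 532 bp upstream of the short transcript c (5′ end at 1840101). Replicate 1 gave 12.2 there (rank 16846), near the weakest value of its list (11.8), and replicate 2 gave 24.5 (rank 4578), above the median of its list (19.8). Replicate 1 alone also listed summits 2948 bp and 4228 bp downstream of the first 5′ end, with signals of 25.2 and 16.3.

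**Figure D1:**
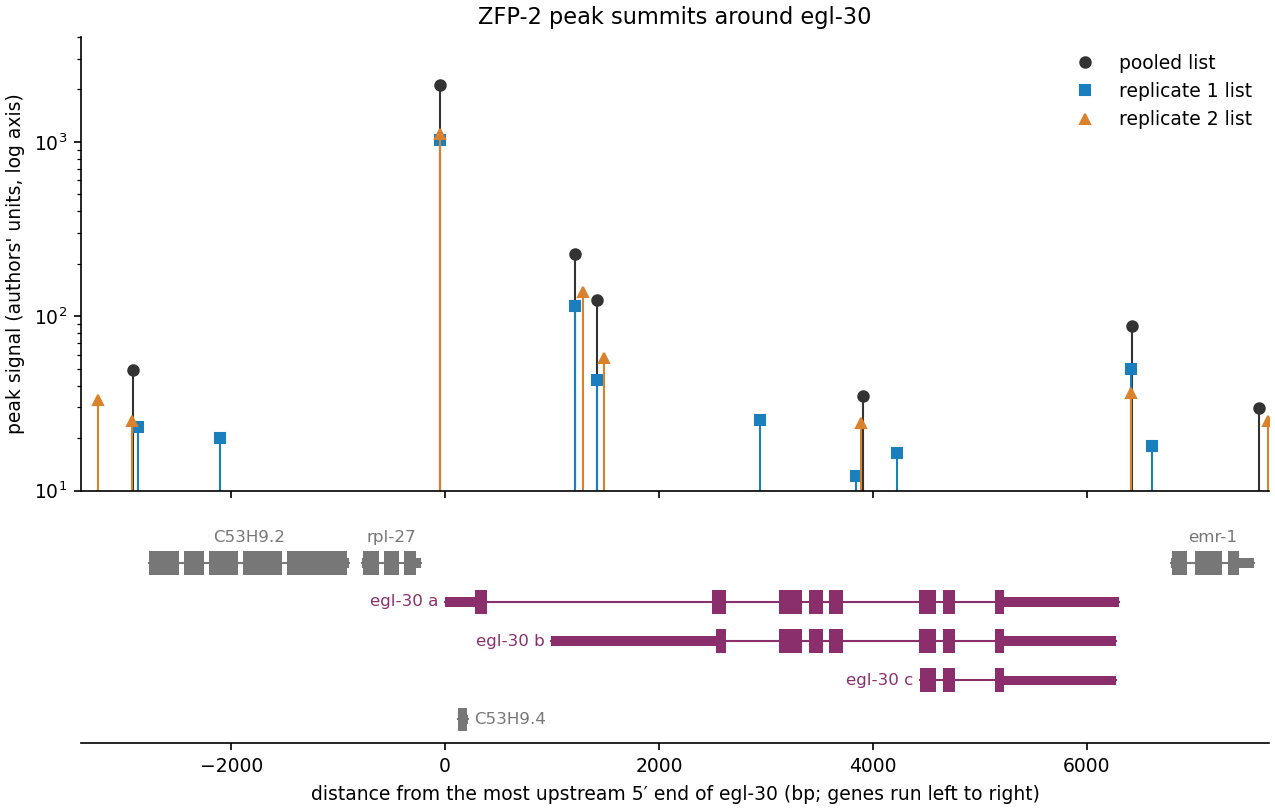
Peak summits of the pooled list and of each replicate around egl-30, with signal on a log axis against the distance in bp from the first 5′ end of egl-30; boxes are exons (tall where coding) and lines are introns. The summit at −50 bp reached 2112 in the pooled list, and the intragenic summits at 1214 bp and 1418 bp reached 229 and 123, while the window upstream of rpl-27 held none.

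Having 3 thresholded summits in a span was uncommon, counted as calls and not as separate sites. In egl-30, 2 of the 3 peaks overlap, and overlap within the other genes was not examined. Among all genes, 618 had 1 such summit, 36 had 2, 4 had 3 and none had more. The other genes with 3 were Y111B2A.12, pqn-41 and ppfr-1, whose strongest signals were 183, 161 and 153. These genes were named after their values were seen.

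The peak at the start of egl-30 has other genes close by. C53H9.4, a 93 bp protein-coding gene model of which no function is given here, lies inside the first exon of egl-30 from 1835780 to 1835872. The same summit stood 169 bp upstream of it, so the promoter windows of both genes hold it and the peak cannot be told apart between them. Upstream, the gene for ribosomal protein L27, rpl-27 (1834883 to 1835438, plus strand), ends 222 bp before egl-30 starts. The summit lay 173 bp past the 3′ end of rpl-27 and 728 bp from its 5′ end. The promoter window of rpl-27 held 0 summits in each of the 4 lists. C53H9.2, the next gene upstream, had a pooled summit of 49.0 (rank 2113) in its window.

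Downstream of egl-30, a thresholded summit at 1842081 lay 116 bp past the end of the gene and outside its span. It stood 364 bp upstream of emr-1, which encodes the nuclear envelope protein emerin. Its signal was 88.3 (rank 583), with rank 388 in replicate 1 and 1374 in replicate 2. C53H9.2, rpl-27 and emr-1 were picked because they adjoin egl-30, after their values were seen.

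Among the other G alpha members, gsa-1 (WBGene00001745, chromosome I, 1068484 to 1074343, plus strand) had the strongest site. Its thresholded peak ran from 1068133 to 1068568, with the summit at 1068351, 133 bp upstream of the first 5′ end. The signal was 93.9 (rank 515) in the pooled list, 53.8 (rank 324) in replicate 1 and 46.0 (rank 787) in replicate 2. Both replicate summits were 9 bp upstream of the pooled one. The site was repeated in place, but only replicate 1 held it among its 660 strongest peaks.

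A further gsa-1 summit at 1070047 had a pooled signal of 78.5 and rank 768, just below the thresholded list. It lay 336 bp upstream of the 5′ end of the shorter transcript b and within intron 2 of transcript a. Replicate 1 gave 51.5 (rank 355) and replicate 2 gave 28.4 (rank 2857), so the replicates ranked this site far apart. The weakest gsa-1 summit in the pooled list, at 1068587, had a signal of 25.2 at rank 14462. Replicate 2 gave 37.6 within 100 bp of it (rank 1268), and replicate 1 had no summit within that distance. In all, replicate 1 listed 2 summits in the span and replicate 2 listed 7.

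For goa-1 (WBGene00001648, chromosome I, 7522116 to 7526716, plus strand), the pooled list held 3 summits, of signals 30.2, 26.0 and 25.9. Their ranks were 8828, 13427 and 13521, against a median signal of 32.2 over the whole list, and the best of them lay in coding exon 5. The strongest goa-1 summit was 19.0 in replicate 1 (rank 4777) and 22.4 in replicate 2 (rank 6077). No goa-1 summit was within 100 bp of partners in both replicates, and none lay in its promoter window. For gpa-12 (WBGene00001674, chromosome X, 9243557 to 9249107, plus strand), none of the 4 lists held a summit in the span.

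The effector gene egl-8 (WBGene00001177, chromosome V, 20818 to 43704, plus strand) is the longest member at 22887 bp. It held 7 pooled summits with signals from 26.1 to 35.3, or 0.293 per kb of its span. The best, at rank 5495, lay in a coding exon. The strongest egl-8 summit was 28.1 in replicate 1 (rank 1399) and 29.8 in replicate 2 (rank 2468), at different positions, and none of the 7 pooled summits had partners in both replicates.

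Of the antagonists, eat-16 (WBGene00001145, chromosome I, 9722716 to 9726284, plus strand) was in the thresholded list. Its peak ran from 9721952 to 9722387 with the summit at 9722170, 546 bp upstream of the nearest 5′ end, at a signal of 87.9 (rank 587). Replicate 2 had 49.8 (rank 654) 1 bp away. The nearest replicate 1 summit, 47.1 (rank 426), was at 9722275 and outside the 100 bp match. By this match the thresholded eat-16 summit had a partner in replicate 2 alone. The replicate 1 peak, from 9722053 to 9722496, still overlapped the thresholded peak, so replicate 1 did not lack a call there. Its summit was 96 bp upstream of a weaker pooled summit at 9722371 (signal 29.7, rank 9317).

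Other genes share that site. The summit lies within the noncoding RNA gene C16C2.8 (9722096 to 9722380) and in intron 1 of ocrl-1, a gene on the opposite strand that runs from 9715321 to 9728006. Another noncoding RNA gene, C16C2.7, lies 32 bp away. Which of these genes the peak belongs to cannot be told apart here. A second eat-16 summit, in intron 9 at 9725335, had a pooled signal of 59.8 (rank 1369), with 16.2 in replicate 1 (rank 7896) and 45.2 in replicate 2 (rank 817). This summit too lies between the ends of ocrl-1, as does all of eat-16.

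For dgk-1 (WBGene00000958, chromosome X, 983903 to 991456, minus strand), the diacylglycerol kinase gene, the pooled list held 1 intronic summit of 30.2 (rank 8865). Replicate 2 listed it at 16.7 (rank 14094) and replicate 1 had none.

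**Figure D2:**
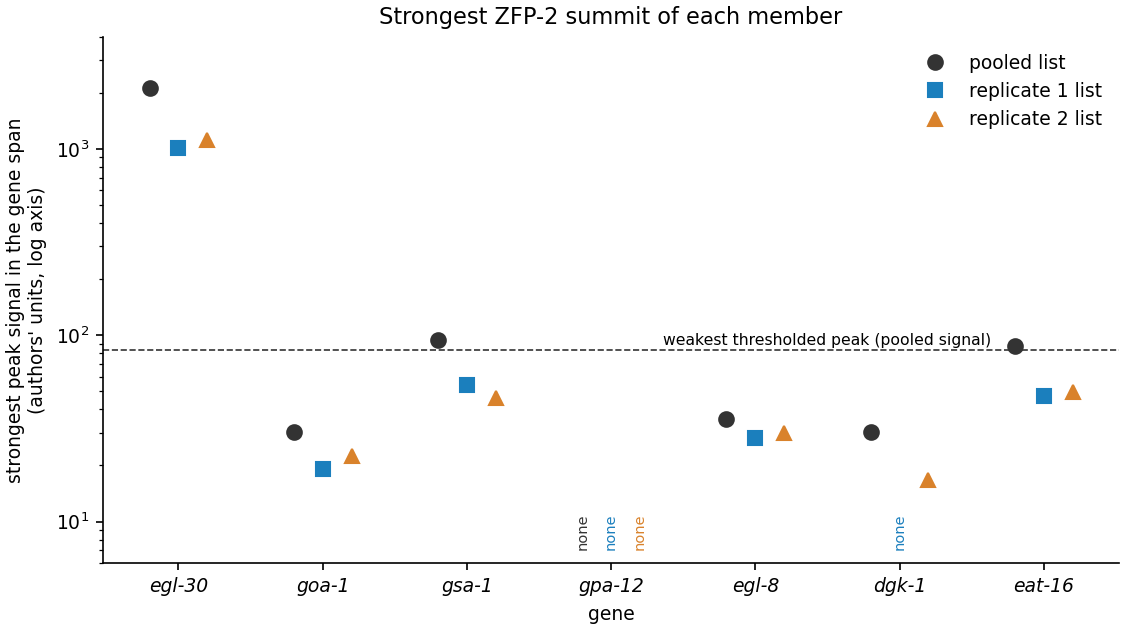
Strongest signal in the span of each of the 7 members, on a log axis, in the pooled list and in each replicate, with the weakest thresholded peak (83.8, pooled signal) as a dashed line. In the pooled list egl-30 at 2112, gsa-1 at 93.9 and eat-16 at 87.9 lie above the line, goa-1, egl-8 and dgk-1 lie between 30.2 and 35.3, and gpa-12 had no summit in any list.

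The order of the members by strongest pooled summit was egl-30, gsa-1, eat-16, egl-8, goa-1 and dgk-1. The signal of egl-30 was 22.5 times that of the next member in the pooled list and 18.9 times in replicate 1, where gsa-1 came next. It was 22.3 times in replicate 2, where eat-16 came next. Of the neighbours in this order, gsa-1 and eat-16 exchanged places between the replicates, so their order is not settled. egl-8 stood above goa-1 in both replicates, and goa-1 and dgk-1 had nearly the same pooled signal. Of the 22 pooled summits of the members, 7 had a partner in both replicate lists, 14 in exactly 1 and 1 in neither. The 7 were the 4 summits of egl-30, 2 of gsa-1 and 1 of eat-16. Over the whole pooled list, 4444 of 14640 nuclear summits (30.4%) had a partner in both.

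**Figure D3:**
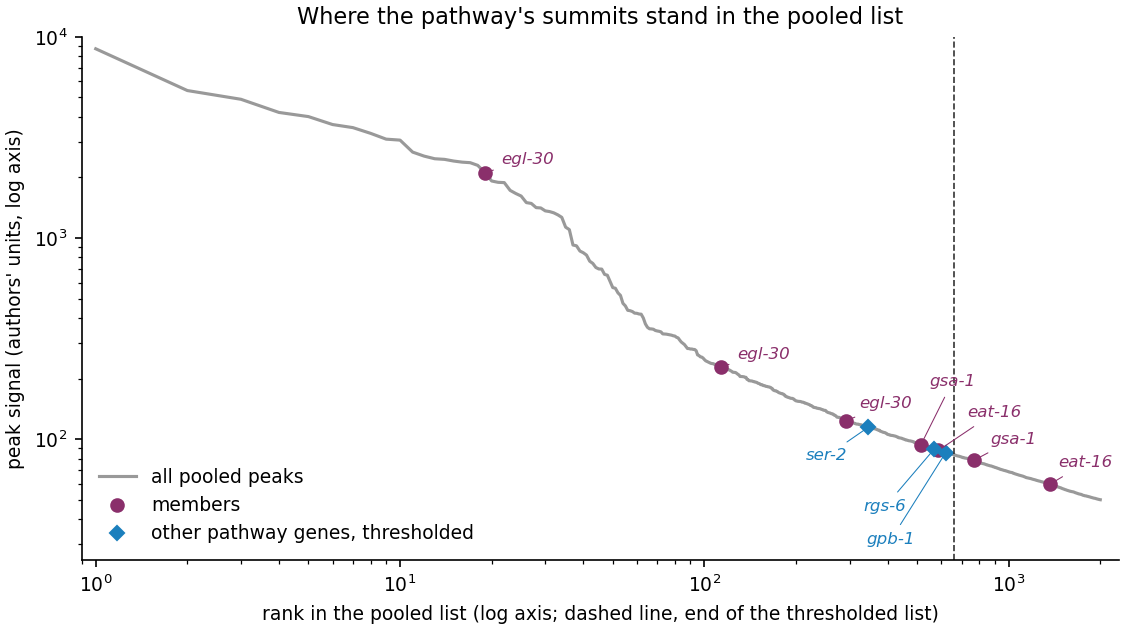
Signal against rank for the strongest peaks of the pooled list, both on log axes, with the members and the other pathway genes of the thresholded list marked and the end of that list as a dashed line at rank 660. The first egl-30 summit (rank 19) lies above the steep fall of the curve, and the gsa-1 (515), eat-16 (587), rgs-6 (570) and gpb-1 (621) summits lie near the dashed line.

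The worm has 21 G alpha genes in the list used here. The 4 members are the worm counterparts of the classes that vertebrates also have, and many of the other 17 act in sensory neurons. In the thresholded list, 2 of the 21 had a summit in the span, egl-30 and gsa-1. In the pooled list 9 did, with 13 in replicate 1 and 7 in replicate 2, where the shares of all genes were 40.5%, 46.3% and 46.4%. The pooled count is near the share of all genes. The replicate 1 count is above its share and the replicate 2 count is below its share. The strongest of the other 17 was gpa-7, at 49.8 in the pooled list (rank 2030) and 36.8 within 100 bp in replicate 2. It was followed by gpa-1 at 43.1 (rank 2980), with 34.8 in replicate 2. Neither had a matching summit in replicate 1, whose strongest summits in these spans, 20.9 for gpa-7 and 18.7 for gpa-1, lay elsewhere. Next came gpa-10 at 32.5 (rank 7080), with 14.3 in replicate 1. Replicate 2 had no matching summit for gpa-10, and its strongest summit in that span, 19.1 (rank 9921), lay elsewhere. None of these reached the weakest thresholded signal.

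A further 76 genes of G protein signalling had been listed by role, and 75 were matched by symbol, the exception being nca-1. Of the 75, 3 had a thresholded summit in the span, beside 3.29% of all genes. They were 1 of the 4 G beta and gamma genes (gpb-1), 1 of the 12 RGS and regulator genes (rgs-6) and 1 of the 13 receptors (ser-2). None was found among the 17 other G alpha genes, the 15 genes of the inositol trisphosphate and diacylglycerol branch or the 7 genes of the cyclic AMP branch. In the pooled list 51 of the 75 (68.0%) had a summit against 40.5% of all genes. Their spans were longer, with a median of 8310 bp, and per kb of span they held 0.153 summits against 0.164 for all genes.

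The DNA at these 3 summits is shown because they are the pathway list's thresholded sites outside the members. Each line gives 201 bases centred on the summit, read from the RefSeq ce11 genome on the plus strand, with capitals marking any of 8 words of 6 letters that led an earlier word count over the same thresholded summits. The words were searched on both strands. They are ACGCAG with its overlapping forms GACGCA and also AGACGC, then the single words ACGCGC and likewise ACACGC, the word GAGCGC by itself, and CGAGAG with its overlapping form GCGAGA.
gpb-1 (chrII:11746939-11747139): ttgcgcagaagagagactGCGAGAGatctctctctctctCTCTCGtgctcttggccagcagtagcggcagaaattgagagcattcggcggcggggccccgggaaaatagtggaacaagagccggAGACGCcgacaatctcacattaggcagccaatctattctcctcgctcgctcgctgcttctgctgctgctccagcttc
rgs-6 (chrX:5729034-5729234): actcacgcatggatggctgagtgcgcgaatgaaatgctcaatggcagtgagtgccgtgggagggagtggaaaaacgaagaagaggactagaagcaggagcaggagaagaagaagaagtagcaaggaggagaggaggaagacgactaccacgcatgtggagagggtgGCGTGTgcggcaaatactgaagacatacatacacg
ser-2 (chrX:15297542-15297742): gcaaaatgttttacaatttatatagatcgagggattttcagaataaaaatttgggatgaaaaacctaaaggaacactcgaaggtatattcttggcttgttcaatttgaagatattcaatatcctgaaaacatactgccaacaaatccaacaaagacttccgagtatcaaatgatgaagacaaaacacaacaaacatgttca

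The gpb-1 sequence held 3 of the 8 words and the rgs-6 sequence 1, while the ser-2 sequence held none. gpb-1 encodes the G beta subunit, and its summit lay in intron 1 of transcript a and in a noncoding RNA gene. Its signal was 85.8 (rank 621), with 59.0 in replicate 2 (rank 455) and no summit within 100 bp in replicate 1. The rgs-6 summit, 111 bp upstream of the 5′ end of its transcript b and in a noncoding RNA gene, had a signal of 89.5 (rank 570). Replicate 1 gave 42.2 (rank 535) and replicate 2 gave 47.8 (rank 724).

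ser-2 encodes a tyramine receptor. Its summit lay in intron 1 of 3 of its transcripts, at a signal of 115 (rank 346), with 42.9 in replicate 1 (rank 511) and 29.9 in replicate 2 (rank 2441). A tRNA gene stood 98 bp from it. The tRNA gene nearest to the first egl-30 summit was 259819 bp away, and the nearest gene annotated as ncRNA was 5068 bp away. The part that small RNA genes play in these peaks was not tested.

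The same words were counted at the members. Within 100 bp of the first egl-30 summit, 5 of the 8 words occurred: GACGCA and ACACGC 2 times each, ACGCGC 1 time, and CGAGAG and GCGAGA 3 times each. The summit at 1836875 held 6 of the 8, the nearest of which began 50 bp downstream of it, and the summit at 1837079 held none. The gsa-1 summit held ACGCAG and ACACGC, and the eat-16 summit held ACACGC and CGAGAG. At least 5 words were present at 49 of 642 nuclear thresholded summits (7.63%) and in 75 of 19973 promoter sequences of the same length (0.376%). The words are themselves rich in G and C, and these sets were not matched in base composition. Mean G+C was 46.0% at the thresholded summits and 33.6% in the promoter sequences. Because the words came from these summits, their presence at a member is no separate support, and a match is not a binding site.

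The sequence at egl-30 was rich in G and C. Over the 201 bp centred on the first summit G+C was 64.2%, the highest of the 642 nuclear thresholded summits, whose mean was 46.0% ± 7.10 (SD, n = 642 summits). With 101 bp it was 67.3% and ranked 5, and with 401 bp it was 51.1% and ranked 63, so the first place holds for 201 bp only. The intragenic egl-30 summits had 55.2% (rank 60) and 58.2% (rank 21). The gsa-1 summit had 62.2% (rank 4) and the eat-16 summit 50.7% (rank 163).

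The annotated promoters of the members differed in the same property. In the 201 bp up to the first 5′ end, the mean over all 19973 genes was 33.6% ± 6.42 (SD). The gsa-1 promoter had 61.7%, rank 4 of all genes, and the egl-30 promoter 58.7%, rank 21. Then came eat-16 with 44.8% (rank 1022), gpa-12 with 39.8% (rank 3043) and goa-1 with 36.8% (rank 5301). The lowest were dgk-1 with 28.9% (rank 15002) and egl-8 with 28.4% (rank 15560). The 3 members of the thresholded list thus had the highest promoter G+C of the 7. The members were chosen with their signals known, and the thresholded summits as a whole had a mean G+C of 46.0%. This order is therefore no separate observation. At egl-30 and gsa-1 this sequence and that around the summit overlap, so the values at promoter and summit are not separate.

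Across all protein-coding genes 2.79% had a thresholded summit in the promoter window, so most promoters of any G+C had none. Of the 24 genes whose promoter G+C was at or above that of egl-30, 3 had a thresholded summit in the promoter window, and 2 of these were egl-30 and gsa-1 themselves. Without the members it was 1 of 22 (4.55%). Among the 19949 genes with lower promoter G+C, the other members included, 555 had such a summit (2.78%). Of the genes at 50% or more, 17 of 268 had one without the members (6.34%). With the members it was 19 of 270 (7.04%), against 539 of the 19703 genes below 50% (2.74%). Whether G+C plays a part in binding was not tested. Across the 642 summits Spearman's rank correlation of G+C with signal was −0.03 over 201 bp, 0.10 over 101 bp and −0.16 over 401 bp. These values run across peaks of 1 pooled list and are given as a description.

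**Figure D4:**
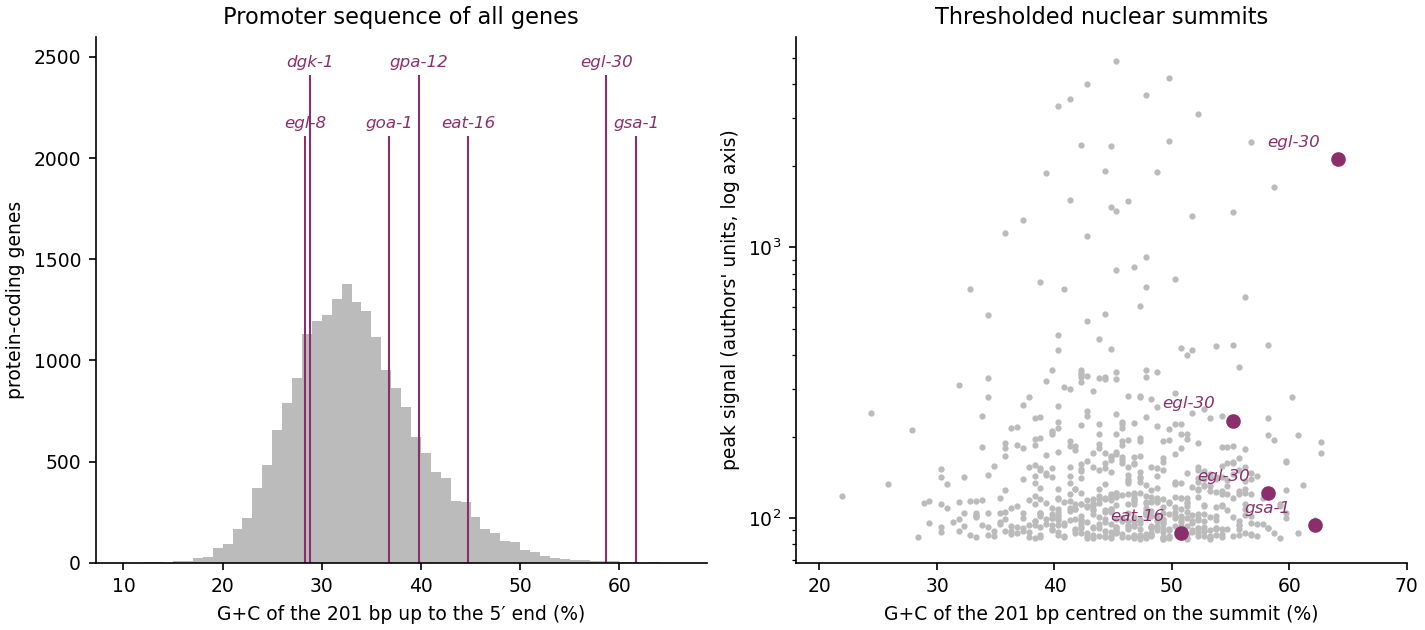
Left, the number of protein-coding genes by G+C of the 201 bp up to the 5′ end, with the 7 members as vertical lines; right, signal on a log axis against G+C of the 201 bp centred on each nuclear thresholded summit, with those of the members marked. The gsa-1 (61.7%) and egl-30 (58.7%) promoters lie in the far upper tail, and the first egl-30 summit has the highest G+C (64.2%) among the summits.

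By the signals of both replicates in log2 units, the genes whose strongest promoter summit was nearest to that of egl-30 were found among 3353 genes with one in both lists. C53H9.4 shares the peak and is at a distance of 0. F01G4.6 and the prefoldin gene pfd-1, which share a peak of their own, followed at 0.242, with 864 in replicate 1 and 1068 in replicate 2. The alpha tubulin gene tba-2 was at 0.244, with 1102 and 1288. None of these belongs to the pathway lists used here. That carries no information, since ser-2, the listed gene next in strength after egl-30, had a pooled signal of 115.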

How the data were processed

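Peaks were analysed for 2 biological replicates of GFP-tagged ZFP-2. The authors deposited narrowPeak lists without a header, and the signal is the authors' value in column 7. The deposited −log10 q-value reached at most 1.96 in the pooled list and was used only to describe peaks. Per the labels, the lists were made on ce10 and ce11, and the ce10 lists were not used here. Thresholding was by irreproducible discovery rate, per the submitters' description. Which aligner, caller and cutoff served is not given in the sources used here. The linked control was not analysed here.

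Summits were assigned to gene spans and promoter windows of Ensembl release 115 and matched between lists within 100 bp. Base composition and words came from the RefSeq genome of the same build. No test was run, since the design has 1 group. The assignment of summits was checked on simulated data. Python 3.11.15, numpy 2.4.6, pandas 2.3.3 and matplotlib 3.10.9 were used.

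The members, the pathway list and the words were chosen with earlier results of these data known. Named genes are the members, pathway genes with a thresholded summit, the 3 other G alpha genes with the strongest pooled summit, genes whose promoter window holds a thresholded summit of a member span, and the 4 nearest to egl-30 by replicate signals. Other genes named were chosen after their values were seen. A branch of the pathway list enters the totals and is not reported here by itself. Alternatives covered the window, the list length, the replicate used and the sequence length.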

Additional observations from a re-analysis of the deposited data

How the results depend on the processing

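With an upstream reach of 500 bp 2 members kept a thresholded summit, as eat-16 left, and 3 did with 2000 bp. With the 330 strongest thresholded peaks 1 member, egl-30, and 0 of the 75 pathway genes had a summit. With 1320 pooled peaks, 8 pathway genes had one. Using 1 replicate in place of the pool gave 2 to 3 members and 2 to 2 pathway genes. It gave a rank of 17 to 21 for egl-30, a summit −50 to −45 bp from its 5′ end (−45 without replicate 1) and a ratio to the next member of 18.9 to 22.3. Without replicate 1, gsa-1 (rank 787) left the list. Among nuclear peaks the rank of egl-30 was 12. Its G+C rank of 1 became 5 with 101 bp and 63 with 401 bp, alternatives chosen after seeing the data. Other alternatives run for the counts of genes stayed within 1.5 times the reported values. No paired analysis was possible because there is 1 group. Depth is unknown, the replicates limit precision to the spread between 2 lists, and the pooled list includes background calls whose share is not known.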

Other observations

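The 4 pathway list genes next in rank after the thresholded list are given here, a choice made after their values were seen; in the pooled list 68.0% of the matched pathway genes and 40.5% of all genes had a summit. The protein kinase C gene pkc-2 had a pooled signal of 73.1 (rank 887), with rank 1194 in replicate 1 and 1174 in replicate 2, and a tRNA gene covered the summit. kin-2, which encodes the regulatory subunit of protein kinase A, had 67.6 (rank 1039), with ranks 1024 and 1537, and a noncoding RNA gene lay 11 bp away. The phospholipase C gene plc-1 had 64.3 (rank 1152), with ranks 1439 and 2105, and its summit lay in a tRNA gene and a noncoding RNA gene. The protein kinase C gene pkc-1 had 61.7 (rank 1271), with ranks 1055 and 6079, and its summit lay in a noncoding RNA gene. The part of these RNA genes in the peaks was not tested.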
